A study of Mus musculus with 11 samples.

Results

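The genes described are those of the peptide hormones that islets make outside beta cells, together with neurotensin: glucagon (Gcg), somatostatin (Sst), pancreatic polypeptide (Ppy), peptide YY (Pyy), ghrelin (Ghrl) and neurotensin (Nts). They were taken from the count table by symbol and make up 6 of its 32285 genes. All 6 passed the filter on low counts that left 15093 genes for testing. RNA was sequenced from pancreatic islets, the clusters of endocrine cells in the pancreas, after a 24 h exposure to 10 µM azoramide, a compound that modulates the unfolded protein response, or to DMSO alone. There were 3 libraries labelled βZKO-Mip with azoramide, 2 labelled βZKO-Mip with DMSO, 3 control libraries with azoramide and 3 control libraries with DMSO. The label βZKO-Mip stands for mice described as lacking Zzef1 in beta cells, and the controls were littermates. All mice were 16 weeks old and had been on a high-fat diet for 4 weeks, so every group carries that diet. Islets of 3 or more mice went into each sample. The labels do not give the strain, do not spell out Mip, and do not say whether samples share mice, so p-values measure the spread between these samples.

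Islet hormones are made as precursors, cut by prohormone convertases and stored in granules, and each endocrine cell type is known for its main product. Alpha cells make glucagon, which raises blood glucose, and delta cells make somatostatin, which restrains the release of both insulin and glucagon. PP cells make pancreatic polypeptide and epsilon cells make ghrelin, while peptide YY and neurotensin are best known from enteroendocrine cells of the gut, and peptide YY is also found in islet cells. The transcript levels below come from whole islets, in which fewer cells of a type and less RNA per cell cannot be told apart.

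Library totals ran from 16832800 to 19501813 counts over the 11 libraries. Zzef1, the gene named as deleted, was at 72.8 ± 4.53 CPM (counts scaled to library size) in knockout-labelled islets with azoramide and 66.6 ± 2.02 CPM in control libraries with azoramide (SD, n = 3 each). It was at 81.5 ± 2.93 CPM (n = 2) in knockout-labelled islets with DMSO and 97.2 ± 12.2 CPM (n = 3) in control libraries with DMSO, and neither genotype difference passed the test, at log2 differences of 0.13 with azoramide and -0.26 with DMSO. Counts over the whole gene in whole islets cannot show whether part of Zzef1 was deleted in beta cells. The knockout is therefore written as a label throughout. Knockout-labelled azoramide library 3 and control DMSO library 2 lay at opposite ends of the second principal component, which held 11.8% of the variance. Of its group, the knockout-labelled library had the highest Sst and the lowest Nts and Ghrl, and control DMSO library 2 had the lowest Ppy of all 11 libraries.

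All 6 genes lie on the minus strand and code for protein, in the GENCODE M21 annotation of GRCm38. Gcg (ENSMUSG00000000394) spans chr2:62474530-62483650 with 1494 exonic bases, and Sst (ENSMUSG00000004366) spans chr16:23889573-23890958 with 721. Ppy (ENSMUSG00000017316, chr11:102099930-102101319, 500 exonic bases) and Pyy (ENSMUSG00000017311, chr11:102106676-102107832, 631 exonic bases) are neighbours and encode related peptides of the neuropeptide Y family. Nts (ENSMUSG00000019890) spans chr10:102481756-102490486 with 1248 exonic bases. Ghrl (ENSMUSG00000064177) spans chr6:113716119-113719880 with 1079 exonic bases and is the only member with overlapping annotated genes, Gm26982 and Gm44033 on the plus strand. Gm26982 had 27 to 48 counts in every library, and since the strand setting of the counting is not given, reads of the overlap cannot be told apart.

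The promoters of Nts, Sst and Gcg are shown because Nts had the highest log2 fold change with azoramide of the 6 genes, Sst the lowest and Gcg the most transcript. Each is the 250 bases before the RefSeq start, from GRCm38.p6, on the minus strand, written 5′ to 3′, with the matches named in the next paragraph in capitals. They lie at chr10:102490419-102490668, chr16:23890845-23891094 and chr2:62483654-62483903.
Nts: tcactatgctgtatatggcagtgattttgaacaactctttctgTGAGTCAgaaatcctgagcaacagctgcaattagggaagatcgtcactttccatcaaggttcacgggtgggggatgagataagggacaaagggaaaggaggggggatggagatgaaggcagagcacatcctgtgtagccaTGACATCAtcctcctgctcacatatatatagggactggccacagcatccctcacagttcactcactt
Sst: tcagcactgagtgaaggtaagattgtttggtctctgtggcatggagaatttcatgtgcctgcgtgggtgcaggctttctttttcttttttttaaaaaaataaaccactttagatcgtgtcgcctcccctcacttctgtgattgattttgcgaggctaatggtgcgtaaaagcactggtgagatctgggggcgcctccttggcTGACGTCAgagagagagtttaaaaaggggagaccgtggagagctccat
Gcg: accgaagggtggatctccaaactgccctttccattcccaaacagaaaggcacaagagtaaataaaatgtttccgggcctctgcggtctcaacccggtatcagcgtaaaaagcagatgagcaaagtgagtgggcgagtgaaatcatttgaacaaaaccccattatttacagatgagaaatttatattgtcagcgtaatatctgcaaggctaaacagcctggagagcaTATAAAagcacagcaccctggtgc

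The capitals mark matches to 4 motifs that were searched in every promoter, on both strands except for the TATA box, which was searched on the given strand. The Sst promoter holds TGACGTCA, the cAMP response element, at -48 to -41 from the start, a match found in 1.55% of 32851 mouse promoters of the same length. The Nts promoter holds TGACATCA, a CRE-like element, at -67 to -60 and TGAGTCA, an AP-1 element, at -207 to -201. These 2 are found in 2.93% and 4.46% of all promoters. A TATA box, TATAAA, lies at -24 to -19 of Gcg and -31 to -26 of Ppy, and in 7.59% of all promoters. None of the 4 motifs was found in the windows of Pyy (2 starts) or Ghrl (4 starts). The matches describe the sequence and were not tested as sites.

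The 6 genes differed widely in level. Per exonic length, Gcg was highest in each group, at 15868 ± 659 RPKM (CPM per kilobase of exon) in knockout-labelled islets with azoramide, 10034 ± 918 RPKM with DMSO, 17010 ± 1139 RPKM in control libraries with azoramide and 9939 ± 557 RPKM with DMSO (SD, n = 3, 2, 3 and 3). Ppy came next in each group by its mean, at 3911 ± 362 RPKM in knockout-labelled islets with azoramide, 2771 ± 102 RPKM with DMSO, 4166 ± 123 RPKM in control libraries with azoramide and 2919 ± 746 RPKM with DMSO. In control libraries with DMSO, Ppy and Sst lay within their spread of each other. Sst followed, at 2773 ± 616 and 2516 ± 106 RPKM in knockout-labelled islets with azoramide and with DMSO, and 2775 ± 188 and 2347 ± 140 RPKM in control libraries with azoramide and with DMSO. Pyy came after it, at 2510 ± 244 and 1555 ± 15.9 RPKM in knockout-labelled islets, and 2702 ± 344 and 1572 ± 104 RPKM in control libraries, in the same order of treatment. Sst and Pyy were within their spread of each other with azoramide in both genotypes, and Pyy was below Sst with DMSO. Nts and Ghrl were far lower, between 0.969 and 6.07 RPKM as group means. They lay within their spread of each other in 3 groups, and in control libraries with DMSO Ghrl was higher, at 2.20 ± 0.811 RPKM, than Nts at 1.01 ± 0.219 RPKM. Together the 6 genes took 2.69 to 3.20% of all counts in libraries with azoramide and 1.93 to 2.16% in libraries with DMSO, of which Gcg held 76.8 to 82.5%.

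**Figure D1:**
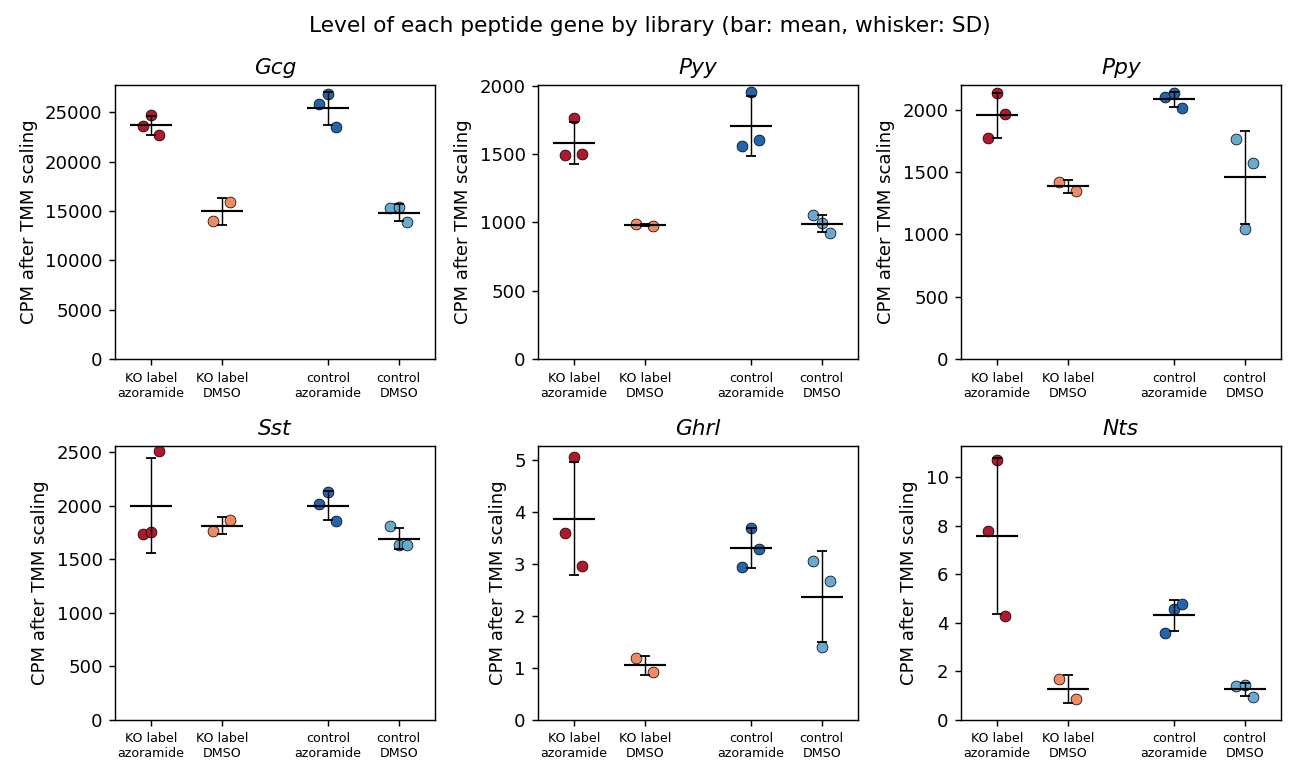
Level of each of the 6 genes in every library, in CPM after TMM scaling on a linear axis from 0, by group: points are libraries, bars group means and whiskers SD (2 libraries in the knockout-labelled DMSO group, 3 in the others). Gcg, Pyy and Nts libraries with azoramide lie above all libraries with DMSO in both genotypes, and the Sst groups overlap in knockout-labelled islets.

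Azoramide was compared with DMSO within each genotype. In knockout-labelled islets 4 of the 6 genes rose, Gcg, Pyy, Ghrl and Nts, and in control islets 4 rose, Gcg, Pyy, Ppy and Nts, while none fell in either (19.8% of all genes tested were called lower in each). The background was large: 39.8% of the 15093 genes tested passed in knockout-labelled islets, 20.0% as higher, and 39.0% passed in control islets, 19.3% as higher (edgeR quasi-likelihood test, Benjamini-Hochberg adjusted p under 0.05). The median log2 fold change over the 6 genes was 0.68 in knockout-labelled islets, against 0.00 over all genes, and 0.64 in control islets, against -0.02 over all genes.

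Gcg, the glucagon gene, stood at 23639, 24722 and 22757 CPM in knockout-labelled islets with azoramide, against 14021 and 15961 CPM with DMSO. In control islets it stood at 25831, 26867 and 23543 CPM with azoramide, against 15286, 15371 and 13889 CPM with DMSO. Every library with azoramide was higher than every library with DMSO, whatever the genotype. The rise was 1.58-fold in knockout-labelled islets (log2 0.66, SE 0.08, edgeR adjusted p = 4.87e-06) and 1.71-fold in control islets (log2 0.78, SE 0.07, adjusted p = 1.87e-07). These values put Gcg at the 89.3rd percentile of log2 fold changes over all genes in knockout-labelled islets and at the 95.1st in control islets.

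Pyy, which encodes a peptide that slows gut transit and reduces appetite, followed Gcg closely. It was at 1493, 1761 and 1497 CPM in knockout-labelled islets with azoramide, against 988 and 974 CPM with DMSO. Control libraries had 1559, 1954 and 1601 CPM with azoramide, against 1054, 998 and 923 CPM with DMSO. Again no library with azoramide overlapped one with DMSO. Pyy rose 1.61-fold in knockout-labelled islets (log2 0.69, SE 0.10, edgeR adjusted p = 7.45e-05) and 1.72-fold in control islets (log2 0.78, SE 0.09, adjusted p = 8.24e-06). Within a library the ratio between these genes hardly moved: 63.2, 71.2 and 65.8 Pyy counts per 1000 Gcg counts in knockout-labelled islets with azoramide, against 70.5 and 61.0 with DMSO. The ratio was 60.4, 72.7 and 68.0 in control libraries with azoramide, against 69.0, 64.9 and 66.4 with DMSO, so the treatments overlap in both genotypes.

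Ppy, the gene of pancreatic polypeptide, was at 1770, 2132 and 1964 CPM in knockout-labelled islets with azoramide, against 1421 and 1349 CPM with DMSO. In control islets it was at 2100, 2134 and 2015 CPM with azoramide, against 1764, 1043 and 1571 CPM with DMSO. The treatments do not overlap in either genotype, but control DMSO library 2 is far below the other two control libraries with DMSO. The difference was close to the threshold on both sides: log2 0.50 (SE 0.19, edgeR adjusted p = 0.0750) in knockout-labelled islets, which did not pass, and log2 0.51 (SE 0.17, adjusted p = 0.0444) in control islets, which did. Without control DMSO library 2 the values were 0.50 (adjusted p = 1.17e-05) in knockout-labelled islets and 0.32 (adjusted p = 0.0011) in control islets. The control call held in 5 of 21 settings in all. When single libraries were left out it held only without control DMSO library 1 (0.67) or 2, and without each of the other libraries in turn the adjusted p was 0.0502 to 0.108.

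Sst, the somatostatin gene, was at 1733, 1752 and 2512 CPM in knockout-labelled islets with azoramide, against 1760 and 1868 CPM with DMSO. Control libraries had 2012, 2130 and 1860 CPM with azoramide, against 1808, 1633 and 1635 CPM with DMSO. The treatments overlap in knockout-labelled islets, where 1 library with azoramide is far above the rest, and do not overlap in control islets. Neither difference passed the test, at log2 0.14 (SE 0.15, edgeR adjusted p = 0.495) in knockout-labelled islets and 0.24 (SE 0.13, adjusted p = 0.181) in control islets. Without knockout-labelled azoramide library 3 the value in knockout-labelled islets turned to -0.06 (adjusted p = 0.568), and that in control islets was 0.24 (adjusted p = 0.00371). With a replicate block together with an offset per library on length and GC content, Sst was called lower in knockout-labelled islets, at -0.53 (adjusted p = 0.000461), which was its sole call there in 21 settings.

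Set against Gcg within the same library, Sst was lower with azoramide. Knockout-labelled libraries held 73.3, 70.9 and 110 Sst counts per 1000 Gcg counts with azoramide, against 126 and 117 with DMSO. Control libraries held 77.9, 79.3 and 79.0 with azoramide, against 118, 106 and 118 with DMSO. The treatments do not overlap in either genotype. For Ppy the same ratio was 74.9 to 86.3 with azoramide and 84.5 to 101 with DMSO in knockout-labelled islets, and 79.4 to 85.6 with azoramide and 67.9 to 115 with DMSO in control libraries, which overlap in both. Gcg counts per count of Ins1, an insulin gene, were 0.896 to 1.29 with azoramide and 0.453 to 0.506 with DMSO in knockout-labelled islets, and 0.964 to 1.23 with azoramide and 0.432 to 0.482 with DMSO in control islets. Ins1 itself fell by log2 0.50 in knockout-labelled islets and 0.46 in control islets (edgeR adjusted p = 0.000529 and 0.000525). Of 10 beta cell markers 3 rose and 4 fell in knockout-labelled islets, and 4 rose and 4 fell in control islets. Over all genes, 20.0% and 19.3% were called higher, and 19.8% lower in each. Ins2, the other insulin gene, was at 0.26 (adjusted p = 0.192) and 0.42 (adjusted p = 0.0241) in that order. Mean Iapp, the amylin gene, rose from 19580 to 32848 CPM in knockout-labelled islets and from 20487 to 34893 CPM in control islets.

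**Figure D2:**
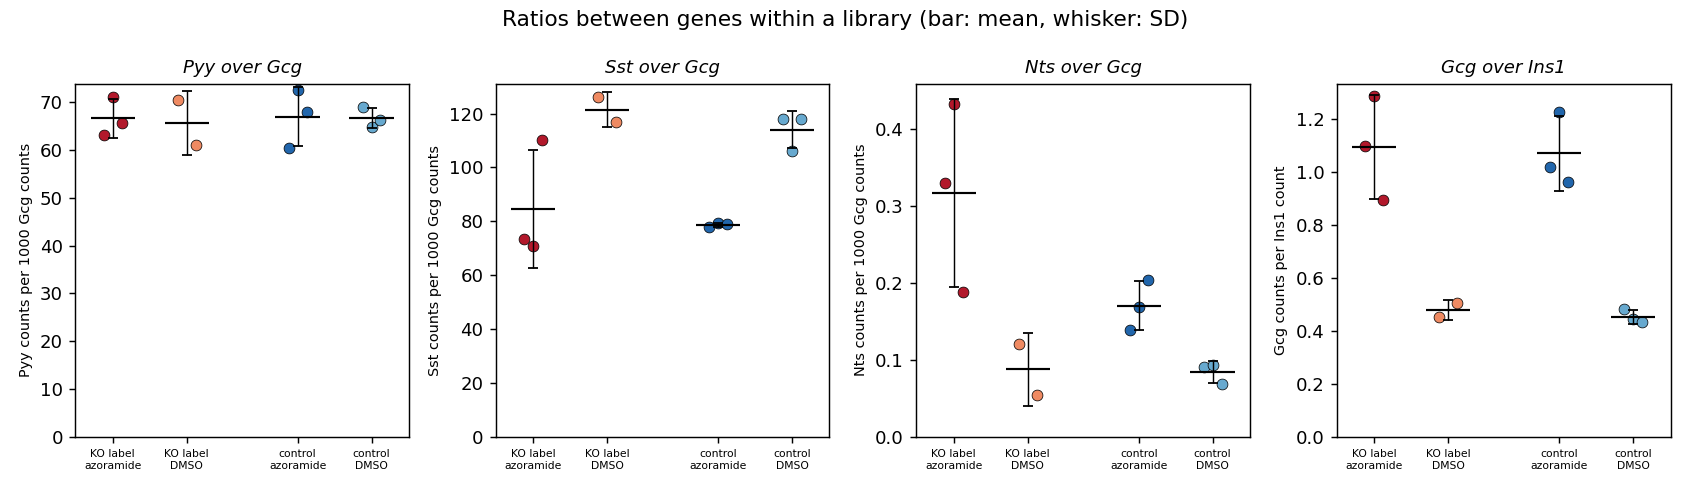
Ratios of counts between genes within each library, on linear axes from 0, by group: points are libraries, bars group means and whiskers SD. Pyy counts per 1000 Gcg counts stay between 60.4 and 72.7 in every group, while Sst per 1000 Gcg lies lower, and Nts per 1000 Gcg and Gcg per Ins1 count lie higher, with azoramide than with DMSO.

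Ghrl encodes ghrelin, a hormone that raises appetite and becomes active once an acyl group is attached. It was scarce, and its counts are given: 67, 91 and 52 in knockout-labelled islets with azoramide, against 23 and 19 with DMSO. Control libraries had 50, 64 and 59 counts with azoramide, against 55, 28 and 48 with DMSO. The groups do not overlap in knockout-labelled islets and overlap in control islets. A count of 19 has a 95% Poisson interval of 11.4 to 29.7, which covers counting error only, so the lowest libraries are uncertain by themselves. Ghrl rose 3.69-fold in knockout-labelled islets (log2 1.89, SE 0.37, edgeR adjusted p = 0.000554) and differed by log2 0.48 (SE 0.30, adjusted p = 0.218) in control islets. The first value is exceeded by 88 of the genes tested. The difference between the 2 azoramide effects, log2 1.40 (SE 0.47), ranked 60 of 15093 by p and did not pass once adjusted over all genes (edgeR adjusted p = 0.999).

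Nts encodes the precursor of neurotensin and neuromedin N, peptides of the gut and brain. Knockout-labelled libraries had 145, 192 and 75 counts with azoramide, against 33 and 18 with DMSO. Control libraries had 61, 79 and 86 counts with azoramide, against 25, 29 and 17 with DMSO. Every library with azoramide had more than every library with DMSO. Nts rose 5.94-fold in knockout-labelled islets (log2 2.57, SE 0.38, edgeR adjusted p = 7.01e-05) and 3.40-fold in control islets (log2 1.77, SE 0.34, adjusted p = 0.000632). Of all genes tested, 32 had a higher log2 fold change in knockout-labelled islets and 33 in control islets. Per 1000 Gcg counts, Nts was at 0.188 to 0.432 with azoramide and 0.0541 to 0.121 with DMSO in knockout-labelled islets, and at 0.139 to 0.203 with azoramide and 0.0679 to 0.0935 with DMSO in control islets. The treatments do not overlap on that ratio in either genotype.

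**Figure D3:**
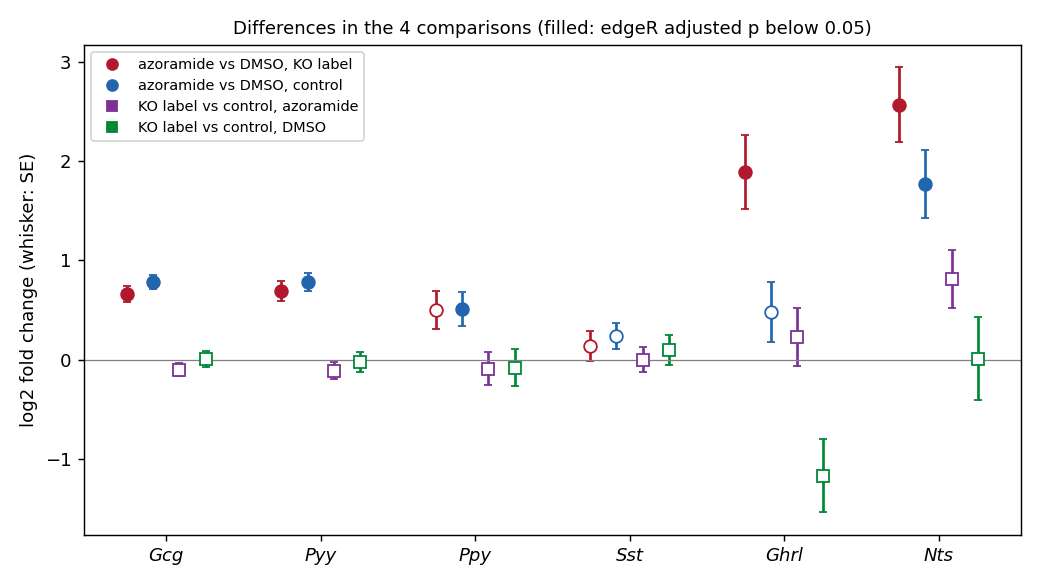
Log2 fold change of each gene in the 4 comparisons, with whiskers for the SE and filled symbols where the edgeR adjusted p is under 0.05. Azoramide differences reach 2.57 for Nts and 1.89 for Ghrl in knockout-labelled islets, and none of the genotype differences is filled.

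Genotype was compared within each treatment. None of the 6 genes passed, and none of the 15093 genes did in edgeR (0%), in either treatment. At an unadjusted p under 0.05 there were 754 genes with azoramide and 531 with DMSO, and DESeq2 called 2 genes with azoramide and 3 with DMSO. Gcg differed by log2 -0.10 (SE 0.07) with azoramide and 0.01 (SE 0.08) with DMSO, and Pyy by -0.11 (SE 0.09) with azoramide and -0.02 (SE 0.10) with DMSO. Sst differed by 0.00 (SE 0.13) with azoramide and 0.10 (SE 0.15) with DMSO, and Ppy by -0.09 (SE 0.17) with azoramide and -0.08 (SE 0.19) with DMSO. For these 4 genes knockout-labelled libraries and control libraries overlap in both treatments.

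The weakly expressed pair had wider differences between genotypes. Ghrl was at 1.18 and 0.911 CPM in knockout-labelled islets with DMSO, against 3.06, 1.39 and 2.66 CPM in control libraries with DMSO, which do not overlap. Groups this small can separate by chance, and the share of all genes that do so was not counted. The Ghrl difference was log2 -1.17 (SE 0.37, edgeR adjusted p = 0.999), which ranked 38 of 15093 by p. With azoramide it was 0.23 (SE 0.29), and the libraries overlap. Nts was at 7.78, 10.7 and 4.27 CPM in knockout-labelled islets with azoramide, against 3.58, 4.55 and 4.78 CPM in control libraries with azoramide. Knockout-labelled libraries 1 and 2 lie above all control libraries with azoramide and library 3 lies among them. The difference was log2 0.81 (SE 0.29, edgeR adjusted p = 0.958). Without knockout-labelled azoramide library 3 and control DMSO library 2 it was 1.10 with an adjusted p of 0.0297, at which setting 84 genes passed in this comparison. With DMSO, Nts differed by 0.01 (SE 0.42).

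The azoramide effects of the 6 genes did not pass a test for a difference between genotypes (0% of all genes in edgeR, 563 at an unadjusted p under 0.05, and 0 in DESeq2). The difference, knockout-labelled libraries minus control islets, was -0.11 (SE 0.10) for Gcg, -0.09 (SE 0.13) for Pyy, -0.02 (SE 0.26) for Ppy, -0.10 (SE 0.20) for Sst and 0.80 (SE 0.51) for Nts.

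The fold changes of all genes depended on exonic length in both azoramide comparisons, and the 6 genes are short. Over genes of 501 to 1000 exonic bases the median log2 fold change was 0.46 in knockout-labelled islets and 0.44 in control islets, and over genes of more than 6000 bases it was -0.14 in knockout-labelled islets and -0.17 in control islets. Over genes of 1001 to 1500 bases, the lengths of Gcg, Nts and Ghrl, it was 0.34 in both. Sst, at 0.14 in knockout-labelled islets and 0.24 in control islets, lies below the median of genes of its length. Ppy, at 0.50 in knockout-labelled islets and 0.51 in control islets, stands beside medians of 0.59 and 0.51 over genes of up to 500 bases. With an offset fitted per library on length and GC content, Nts remained past the threshold, at 1.69 (adjusted p = 0.00195) in knockout-labelled islets and 1.01 (adjusted p = 0.0262) in control islets, and so did Ghrl in knockout-labelled islets, at 1.40 (adjusted p = 0.0101). Pyy was at 0.27 (adjusted p = 0.0456) in knockout-labelled islets and 0.36 (adjusted p = 0.00604) in control islets. Gcg was at 0.06 (adjusted p = 0.669) in knockout-labelled islets, where its call ended, and 0.22 (adjusted p = 0.0397) in control islets. With an offset on length alone, added after the data were seen, Gcg was at 0.35 (adjusted p = 0.00266) in knockout-labelled islets and 0.45 (adjusted p = 0.000121) in control islets. Pyy was then at 0.06 (adjusted p = 0.696) in knockout-labelled islets and 0.19 (adjusted p = 0.110) in control islets, where it passed in neither. In knockout-labelled islets Ppy was at 0.00 with length and GC content and -0.22 with length alone, and Sst at -0.27 and -0.43 in that order. In control islets Ppy was at 0.02 and -0.16, and Sst at -0.19 and -0.31, and none of these passed. The part of length in these differences was not tested.

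**Figure D4:**
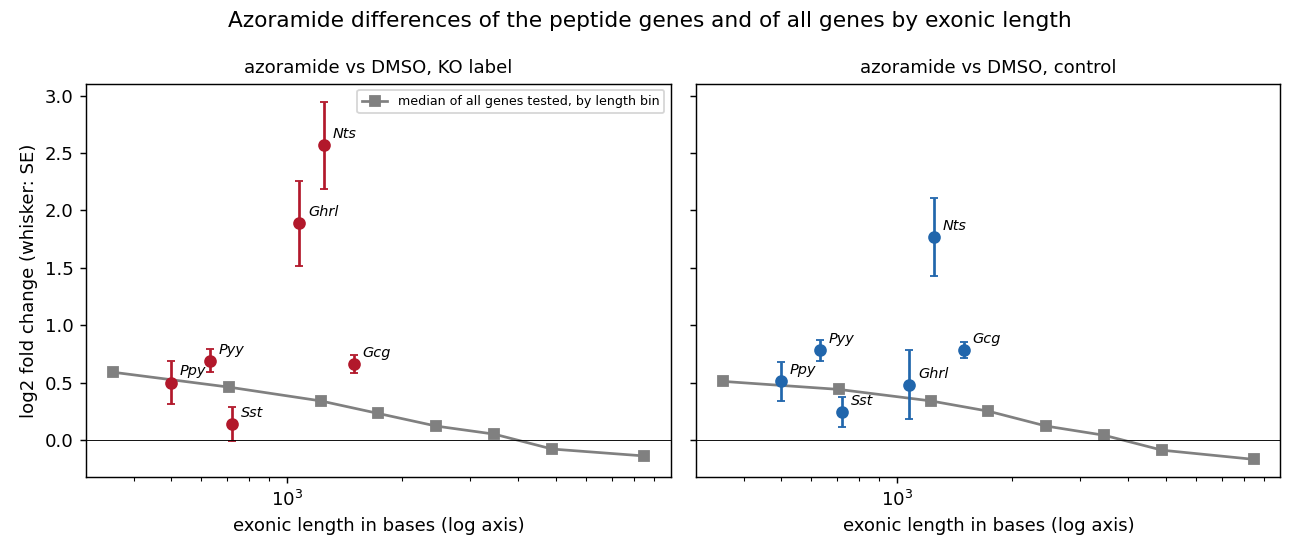
Log2 fold change with azoramide of the 6 genes (points, whiskers for SE) and median of all genes tested in 8 bins of exonic length (grey line), against exonic length in bases on a log axis. The medians run from 0.59 in the shortest bin to -0.14 in the longest in knockout-labelled islets. Nts, Gcg, Pyy and Ghrl lie above the median of their bin in both genotypes, Ghrl in control islets by less than its SE.

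**Figure D5:**
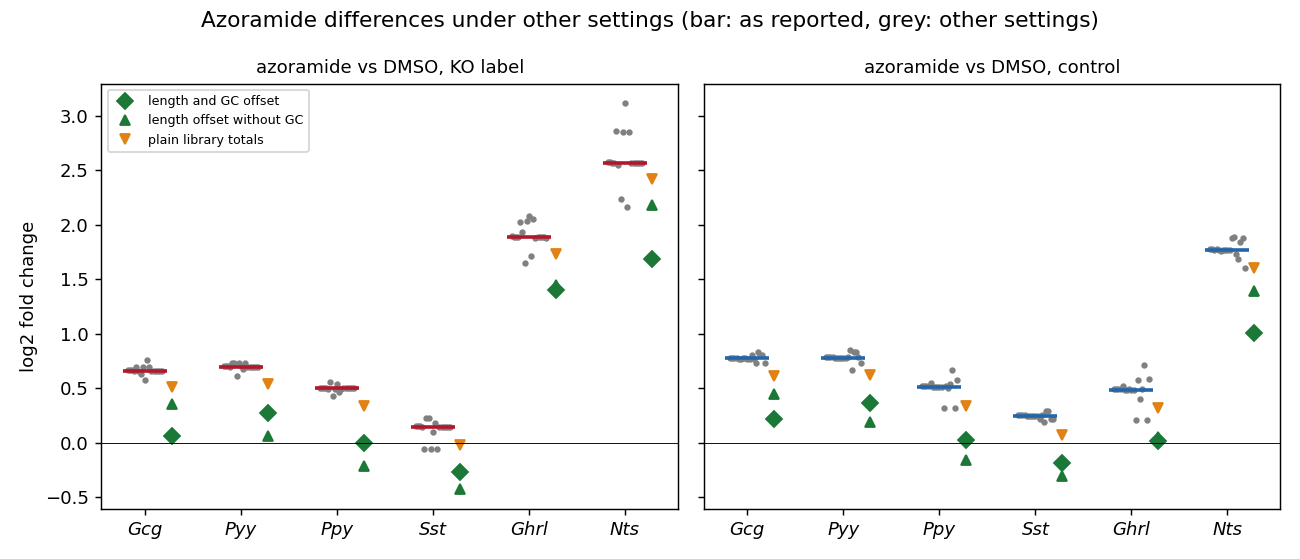
Azoramide log2 fold changes of the 6 genes as reported (bars) and under other settings (points), with both length offsets and plain library totals marked. The replicate block with the length and GC offset is not plotted, and Sst was there at -0.53 in knockout-labelled islets. Nts stays between 1.69 and 3.12 in knockout-labelled islets and between 1.01 and 1.89 in control islets, while Ppy and Sst cross 0.

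Markers of the cells that make these hormones were set beside them. Of 10 alpha cell markers 6 rose and none fell in knockout-labelled islets (median log2 0.50), and 4 rose and none fell in control islets (median 0.37). Over all genes tested, 20.0% were called higher in knockout-labelled islets and 19.3% in control islets, and 19.8% lower in each. Ttr, which encodes transthyretin, rose by 0.65 (adjusted p = 0.0302) in knockout-labelled islets and by 0.90 (adjusted p = 0.00377) in control islets. Offset on length and GC content, Ttr passed in neither, at 0.06 (adjusted p = 0.895) in knockout-labelled islets and 0.34 (adjusted p = 0.331) in control islets, and Gc, another marker called in both, was at -0.01 (adjusted p = 0.937) and -0.11 (adjusted p = 0.276) in that order. Irx1, a transcription factor of alpha cells, then remained called, at 0.81 (adjusted p = 0.00614) in knockout-labelled islets and 0.68 (adjusted p = 0.00794) in control islets. The summed level of the 10 markers was 1018 to 1210 CPM with azoramide and 775 to 866 CPM with DMSO in knockout-labelled islets, and 1188 to 1386 CPM with azoramide and 844 to 888 CPM with DMSO in control islets. Ttr and Gc together made up most of this sum. Mean Ttr was 576 CPM with azoramide and 368 CPM with DMSO in knockout-labelled islets, and 755 and 405 CPM in control islets. Mean Gc was 239 and 173 CPM in knockout-labelled islets, and 254 and 202 CPM in control islets, in the same order of treatment. The part of alpha cell number in the Gcg difference was not tested.

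Beside Sst, 5 delta cell markers were measured. In knockout-labelled islets Rbp4, which encodes retinol-binding protein, rose by 0.85 (edgeR adjusted p = 0.000178) and Frzb, a Wnt antagonist, fell by 0.62 (adjusted p = 0.00576). In control islets Rbp4 rose by 0.70 (adjusted p = 0.000293), Spock3 rose by 0.79 (adjusted p = 0.00881) and Frzb fell by 0.48 (adjusted p = 0.0132). Hhex, the transcription factor that defines delta cells, was at 0.04 (adjusted p = 0.867) in knockout-labelled islets and 0.27 (adjusted p = 0.108) in control islets. The sum of the 5 delta cell markers was 230 to 253 CPM with azoramide and 209 to 212 CPM with DMSO in knockout-labelled islets, and 238 to 254 CPM with azoramide and 202 to 217 CPM with DMSO in control islets. Rbp4 and Frzb, which moved in opposite ways, made up most of it. Mean Rbp4 was 150 CPM with azoramide and 83.2 CPM with DMSO in knockout-labelled islets, and 145 and 89.8 CPM in control islets. Mean Frzb was 68.6 and 105 CPM in knockout-labelled islets, and 73.5 and 103 CPM in control islets, in the same order of treatment. Beside Ppy, 3 of 4 PP cell markers were tested: Etv1 was at 0.14 (adjusted p = 0.143) and Meis2 at -0.22 (adjusted p = 0.0551) in knockout-labelled islets, and in control islets Etv1 rose by 0.24 (adjusted p = 0.00921) and Meis2 fell by 0.21 (adjusted p = 0.0437). The Meis2 call held in 6 of 21 settings, and that of Spock3 ended with the length and GC offset, at 0.58 (adjusted p = 0.0751). Beside Nts, 5 markers of autonomic neurons, which can hold neuropeptides, summed to 30.7 to 37.3 CPM with azoramide and 25.7 to 34.3 CPM with DMSO in knockout-labelled islets, and to 41.3 to 42.0 CPM with azoramide and 34.4 to 37.9 CPM with DMSO in control islets. Most of this was Th, the enzyme of catecholamine synthesis, at 26.0 to 33.8 CPM with azoramide and 22.3 to 30.3 CPM with DMSO in knockout-labelled islets, and 37.0 to 39.7 CPM with azoramide and 32.2 to 36.1 CPM with DMSO in control islets. None of the 3 markers tested passed, with median log2 differences of 0.19 in knockout-labelled islets and 0.70 in control islets, where Slc18a3 was at 1.87 (edgeR adjusted p = 0.173) and Prph at 0.70 (adjusted p = 0.263). Their part in the Nts difference was not tested. Markers of acinar cells, from the exocrine tissue around islets, had sums of 944 to 4935 CPM with azoramide and 486 to 2072 CPM with DMSO in knockout-labelled islets, and 1543 to 4006 CPM with azoramide and 786 to 4772 CPM with DMSO in control islets. Control DMSO library 2, with the lowest Ppy, had the highest of these sums among libraries with DMSO, and the part of exocrine tissue in that value was not tested.

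Receptors for these peptides were mostly at the edge of detection. Of 16 receptor genes 7 were tested, and in both genotypes 4 of them fell and none rose, with medians of -0.38 in knockout-labelled islets and -0.28 in control islets. Of all genes tested, 19.8% were called lower in each genotype, and 20.0% higher in knockout-labelled islets and 19.3% in control islets. Gcgr, the glucagon receptor, fell by 0.93 (edgeR adjusted p = 0.00211) in knockout-labelled islets and by 0.67 (adjusted p = 0.00937) in control islets. Glp1r, the receptor for glucagon-like peptide 1, which is cut from the same precursor as glucagon, fell by 0.95 (adjusted p = 0.00441) in knockout-labelled islets and by 0.64 (adjusted p = 0.0189) in control islets. Sort1, which encodes sortilin, a sorting receptor that also binds neurotensin, fell by 0.66 (adjusted p = 1.12e-05) in knockout-labelled islets and by 0.60 (adjusted p = 1.16e-05) in control islets. Sstr3, a somatostatin receptor, fell by 0.38 (adjusted p = 0.000792) in knockout-labelled islets and by 0.28 (adjusted p = 0.0036) in control islets. Offset on length and GC content, Gcgr and Sort1 kept both calls, Sstr3 lost both, at -0.08 (adjusted p = 0.462) in knockout-labelled islets and -0.04 (adjusted p = 0.695) in control islets, and Glp1r lost that in control islets, at -0.51 (adjusted p = 0.0685). Ntsr1, the main neurotensin receptor, and the receptors Npy2r, Npy4r and Npy5r for peptide YY and pancreatic polypeptide had 0 counts in every library. Ghsr, the ghrelin receptor, had 72 to 152 counts.

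Of 10 genes that turn the precursors into hormones, all tested, 3 rose and 3 fell in knockout-labelled islets, and 1 rose and 2 fell in control islets. In percent of all genes tested, 20.0 were called higher and 19.8 lower in knockout-labelled islets, and 19.3 higher and 19.8 lower in control islets, so these counts lie near the background. The prohormone convertase genes Pcsk1 and Pcsk2 were called in neither genotype. Mean Pcsk1 was 914 CPM with azoramide and 725 CPM with DMSO in knockout-labelled islets, and 885 and 794 CPM in control islets. Mean Pcsk2 was 3587 and 3689 CPM in knockout-labelled islets, and 3749 and 3865 CPM in control islets, in the same order of treatment. Furin, a convertase of the secretory pathway, fell by 0.59 (edgeR adjusted p = 3.5e-06) in knockout-labelled islets and by 0.48 (adjusted p = 1.01e-05) in control islets, and Scg5, the chaperone of convertase 2, rose by 0.34 (adjusted p = 0.00111) in knockout-labelled islets and by 0.45 (adjusted p = 2.86e-05) in control islets. The length and GC offset ended all 4 of these calls, with Furin at -0.13 (adjusted p = 0.186) in knockout-labelled islets and -0.07 (adjusted p = 0.465) in control islets, and Scg5 at -0.10 (adjusted p = 0.456) and 0.03 (adjusted p = 0.836) in that order. Pcsk1n fell in both genotypes and kept both calls with the offset, at -0.44 (adjusted p = 9.82e-05) and -0.28 (adjusted p = 0.00191). Cpe fell in knockout-labelled islets and kept its call, at -0.41 (adjusted p = 0.00235). In knockout-labelled islets Pam, which amidates peptides such as pancreatic polypeptide and peptide YY, rose by 0.63 (adjusted p = 0.0209), and Qpct, which forms the pyroglutamate at the start of neurotensin, rose by 1.17 (adjusted p = 0.00363). With that offset Pam kept its call, at 0.92 (adjusted p = 0.0108), and Qpct was at 0.72 (adjusted p = 0.0778). In control islets Pam was at 0.37 (adjusted p = 0.0983) and Qpct at 0.33 (adjusted p = 0.314). Mboat4, the enzyme that acylates ghrelin, had 3 to 13 counts in each library.

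Of 20 regulators of hormone genes 18 were tested, of which 2 rose and 6 fell in knockout-labelled islets and 1 rose and 5 fell in control islets, against the same background shares. Crem, a factor that binds cAMP response elements, rose by 1.12 (edgeR adjusted p = 0.015) in knockout-labelled islets and by 0.74 (adjusted p = 0.0452) in control islets, a call that held in 6 of 21 settings and in 2 of 11 with a single library left out. Crtc1, a coactivator of CREB, the factor of that element, fell by 0.64 (adjusted p = 3.71e-06) in knockout-labelled islets and by 0.50 (adjusted p = 1.42e-05) in control islets. Both Crtc1 calls ended with the length and GC offset, at -0.11 (adjusted p = 0.228) in knockout-labelled islets and -0.03 (adjusted p = 0.742) in control islets. Crtc2 fell by 0.50 (adjusted p = 0.000231) in knockout-labelled islets and by 0.41 (adjusted p = 0.000565) in control islets. It kept both calls with that offset, at -0.32 (adjusted p = 0.0128) and -0.27 (adjusted p = 0.02) in that order. Nkx2-2, a transcription factor of several islet cell types, fell by 0.64 (adjusted p = 1.42e-05) in knockout-labelled islets and by 0.45 (adjusted p = 0.000153) in control islets.

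How the 6 genes varied between libraries of the same group was described by correlating deviations of log2 CPM from the group means over the 11 libraries, which share the depth and makeup of each library. Ppy and Ghrl deviated together most (Pearson r = 0.86), followed by Gcg and Pyy (0.60), and Sst and Nts deviated in opposite ways (-0.68). Single libraries weigh on these values. Control DMSO library 2 had the lowest Ppy (1043 CPM) and Ghrl (1.39 CPM) of its group. Knockout-labelled azoramide library 3 had the highest Sst (2512 CPM) and lowest Nts (4.27 CPM) of its group. Among 9633 candidate genes, those most like each member were Ctu2 for Gcg (0.954), Ccser2 for Pyy (0.950), Gpalpp1 for Ppy (0.982), Clcn7 for Sst (0.974), Gcc2 for Ghrl (0.954) and Zdbf2 for Nts (0.966). Each is the highest value picked from all candidates over 11 libraries, so its size owes part to that choice. Shared regulation was not tested.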

How the data were processed

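The authors deposited 1 table of raw counts, whole numbers without normalization, with 32285 genes and 11 libraries. STAR 2.7.2a, the build mm10 and DESeq2, with no role given, are named in the submitters' processing notes. How reads were counted, on which annotation and strand, is not stated in those sources. Groups came from the sample titles. The 6 genes and all gene lists were chosen with earlier results of these data known.

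All genes were fitted in R 4.3.3 with edgeR 4.0.16, by its quasi-likelihood test (robust option) after TMM scaling and filtering of low counts by group (15093 genes kept), with the 11 libraries in a single fit of 4 groups. p-values were Benjamini-Hochberg adjusted over all genes tested, with a threshold of 0.05. Levels are CPM after TMM scaling. The share of all genes whose groups do not overlap was not counted. RPKM divides CPM by the union exonic length from GENCODE M21 (32158 genes matched). Promoters are RefSeq, GRCm38.p6. Each comparison was repeated with DESeq2 1.42.0, other scalings and filters, a replicate block, length offsets and without each library. The steps were tested on simulated counts. Beside the 6, genes named are Ins1, Ins2, Hhex and Zzef1, up to 4 per list by smallest p in control islets, receptors, maturation genes and regulators past the threshold in a comparison, and the 3 genes most like each member; a subset is printed, and a few others are not reported here. Tac1, Gal, Ghsr, Mboat4, Pcsk1, Pcsk2, Gm26982 and the receptors at 0 were named after their values were seen. At depths of 16832800 to 19501813 counts, counting error matters for Ghrl and Nts alone among the 6.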

Additional observations from a re-analysis of the deposited data

How the results depend on the processing

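The azoramide rises of Gcg and Nts in control islets and of Ghrl and Nts in knockout-labelled islets kept their call in all 21 settings run. Gcg in knockout-labelled islets (0.03 to 0.76) kept it in 19, Pyy in 19 (0.06 to 0.73) and, in control islets, 20 (0.19 to 0.85), and Ppy in control islets (-0.16 to 0.67) in 5. None of the genotype differences of the 6 genes was called in any setting but that of Nts named above. With 2 to 3 libraries a group, and few counts for Ghrl and Nts, small differences are not detectable.

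The length and GC offset left 3674 genes called in knockout-labelled islets and 3425 in control islets. An offset on length alone left 5465 of the 15093 genes tested called in knockout-labelled islets, 3 of the 6 among them. In control islets it left 5032 called, 2 of the 6 among them. Between genotypes, DESeq2 called 2 genes with azoramide and 3 with DMSO, and no filter on low counts gave 2 with DMSO. Without both libraries that stood apart, 84 genes (1 of the 6) were called with azoramide, 2 with DMSO and 6 for the difference of azoramide effects. Leaving out 1 library gave 0 to 3 genes with azoramide, 0 to 3 with DMSO and 0 to 1 for the difference. The causes were not tested.

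The labels do not say that replicate numbers pair samples. Between treatments, deviations of same-numbered control libraries correlated at 0.20, 0.27 and 0.05, and control DMSO library 3 deviated most like azoramide library 1 (0.15). In knockout-labelled libraries the correlations were 0.16 and -0.42. There the 2 DMSO libraries deviate from their mean in exactly opposite ways, so these values cannot tell whether numbers pair samples. With the replicate block 1 gene was called between genotypes with DMSO and 1 for the difference. In the azoramide comparisons 6162 of all genes were called in knockout-labelled islets and 6004 in control islets, with 4 of the 6 in each. Sst was at 0.24 (edgeR adjusted p = 0.00539) in control islets and -0.06 in knockout-labelled islets, and Ppy in control islets at 0.55 (adjusted p = 0.0934). The block turned Gcg (-0.03) and Nts (-0.11) between genotypes with DMSO, and Hhex (-0.01) in knockout-labelled islets. With the block and the length and GC offset, 4005 genes were called in knockout-labelled islets, 3592 in control islets and 1 between genotypes with DMSO. In knockout-labelled islets 3 of the 6 genes were then called: Ghrl and Nts as higher and Sst as lower, at -0.53 (adjusted p = 0.000461), while Gcg (0.03, adjusted p = 0.771) and Pyy (0.27, adjusted p = 0.0726) lost their calls. Ins2 was at -0.27, Ppy -0.06, Scg5 -0.20, Ttr -0.22 and Zzef1 0.27, in control islets Gc -0.11 and Sst -0.18, and between genotypes Ppy 0.06 and Pyy 0.03 with DMSO and Sst 0.07 with azoramide.

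Other values changed sign, none of the 6 genes' called values among them except that of Ppy in control islets. Offset on length and GC, Gc was at -0.01, Ins2 -0.06, Scg5 -0.10, Sst -0.27 and Zzef1 0.21 in knockout-labelled islets and Gc -0.11 and Sst -0.19 in control islets. Between genotypes Ppy was at 0.01 and Pyy 0.06 with DMSO and Sst 0.09 with azoramide. With length alone, Ins2 was at -0.10, Ppy -0.22, Sst -0.43 and Zzef1 0.03 in knockout-labelled islets, Ppy -0.16 and Sst -0.31 in control islets, and between genotypes Ppy 0.05 and Pyy 0.10 with DMSO and Sst 0.09 with azoramide. With plain library totals, Hhex was at -0.12 and Sst -0.02 in knockout-labelled islets, and between genotypes Pyy 0.01 with DMSO and Sst 0.04 with azoramide. With only the groups compared, Sst between genotypes with azoramide was at 0.00. Without both libraries that stood apart, Hhex was at -0.01, Sst -0.06 and the Ppy difference of azoramide effects 0.17.

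Where leaving out 1 library turned a value, it ranged from -0.02 to 0.10 for Hhex and -0.06 to 0.23 for Sst in knockout-labelled islets. Between genotypes with azoramide the ranges were -0.20 to 0.09 for Sst, -0.01 to 0.39 for Ghrl and -0.19 to 0.00 for Pyy. With DMSO they were -0.08 to 0.10 for Gcg, -0.54 to 0.42 for Nts, -0.27 to 0.08 for Ppy and -0.06 to 0.03 for Pyy. For differences of azoramide effects they were -0.18 to 0.18 for Ppy and -0.17 to 0.02 for Pyy.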

Other observations

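Of 16 other peptide genes of gut and nerve cells 10 were tested, of which 5 rose and none fell with azoramide in knockout-labelled islets (median log2 0.84) and 2 rose and none fell in control islets (median 0.68), against 20.0% of all genes called higher in knockout-labelled islets and 19.3% in control islets, so the control count is at the background. Cartpt, which encodes the CART peptide, had 115, 107 and 73 counts with azoramide in knockout-labelled islets, against 47 and 34 with DMSO. In control islets it had 104, 89 and 99 counts with azoramide, against 70, 74 and 52 with DMSO. The libraries do not overlap in either genotype, and Cartpt rose by 1.43 (edgeR adjusted p = 0.000315) in knockout-labelled islets and by 0.68 (adjusted p = 0.0191) in control islets. Offset on length and GC content, it was at 1.09 (adjusted p = 0.00438) in knockout-labelled islets and 0.34 (adjusted p = 0.272) in control islets, where its call ended.

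Npy, the gene of neuropeptide Y and a relative of Ppy and Pyy, rose by 1.09 (edgeR adjusted p = 0.0271) in knockout-labelled islets and by 1.10 (adjusted p = 0.0176) in control islets, where 1 library with azoramide, at 24 counts, lies among those with DMSO at 29, 22 and 17. Both Npy calls ended with that offset, at 0.49 (adjusted p = 0.367) in knockout-labelled islets and 0.54 (adjusted p = 0.291) in control islets, and they held in 14 and 15 of 21 settings in that order. Tac1, which encodes substance P, had 119, 66 and 65 counts with azoramide in knockout-labelled islets, against 10 and 19 with DMSO, and rose by 2.67 (adjusted p = 0.00289). In control islets Tac1 had 38, 29 and 39 counts with azoramide, against 24, 72 and 12 with DMSO, which overlap (log2 0.11, adjusted p = 0.885). The difference between these Tac1 effects did not pass, nor did that of any gene in edgeR. Gal, the galanin gene, had 25, 37 and 9 counts with azoramide in knockout-labelled islets, against 0 and 3 with DMSO, and 13, 10 and 24 counts with azoramide in control islets, against 2, 21 and 4 with DMSO.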
